A study of Mus musculus with 16 samples.

Results

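The data described here are the mutation rates of the long non-coding RNA MUNC in libraries that never met a SHAPE reagent. Of the 16 libraries of the series, 8 were treated with the solvent DMSO alone, and only these were used. In each of their 10 deposited profiles every residue printed in upper case with an effective read depth of at least 1000 was kept, which gave 5127 values out of 7384. No upper-case residue fell below that depth. The values cover 1033 different residues, 468 of the spliced RNA and 565 of the insert that only the genomic RNA carries.

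All libraries came from C2C12 cells, a mouse myoblast line, made to overexpress 1 form of MUNC. The spliced form gave 2 DMSO libraries from RNA treated after extraction (cell-free) and 2 from RNA treated inside the cells (in-cell). The genomic form gave 1 library of each kind. The deletion forms, named CH1 deletion and CH4 deletion, gave 1 cell-free library each. The labels do not say whether replicates came from separate cultures, so p-values measure the spread between these libraries, which may be technical. The RNA came from overexpression in every group, and only MUNC was amplified, so the cell type could not be checked against marker genes. The spliced RNA is 518 residues long, and residues 26 to 493 were measured. Amplicon 1 of the genomic RNA covers residues 26 to 760 and amplicon 2 residues 604 to 1058. The insert lies at genomic residues 131 to 695, with 3 equal placements of its borders. The CH1 deletion lacks 29 residues near the 5′ end and the CH4 deletion lacks 27 residues at 275 to 301, with 6 equal placements. Exon residues are numbered along the spliced RNA and insert residues along the genomic RNA, both from 1 at the 5′ end.

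MUNC is transcribed upstream of the myogenic gene Myod1 and is known for promoting muscle differentiation. In SHAPE-MaP a reagent forms adducts on flexible nucleotides, reverse transcriptase reads through them with errors, and the errors are counted as mutations. The solvent library measures the mutations that arise without adducts, from the enzyme, the amplification, the sequencing, the read alignment or the template itself, and this background is set against the rate of the reagent library at each residue.

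In the exons 11 residues were among the highest 5% of rates in every profile that measured them, spliced in-cell replicate 2 set aside. They are shown with 12 residues on each side, 5′ to 3′, and the capital marks the residue named.
G60: cuggacaggacaGgggaaaaucaaa
G63: gacaggacagggGaaaaucaaaggg
G102: caggagaacugaGccccaggaugag
U126: gcugugcgcuucUccagauuuaagu
U171: augaaccccacaUccaucggcagca
U225: ggagagagcacgUcccaggcaaacc
C246: aaccagccucugCuuugccugggca
G255: cugcuuugccugGgcagaggcagcg
G256: ugcuuugccuggGcagaggcagcgu
G262: gccugggcagagGcagcgugagagc
G306: cauagagcccagGuuugcuggaaua

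A further 6 residues are shown in the same way. They are the recurring residues of the insert that directly precede a run of 3 or more equal bases.
G225: uggcugggggaaGuuuuagugacca
G291: aaauuuauuucuGuuuuuguuauuu
C323: ugcuuugcuuugCuuuguuugcucg
G327: uugcuuugcuuuGuuugcucggguu
G337: uuguuugcucggGuuugagauaaga
C626: cagcugaggcucCaaaaaggaggaa

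The highest rates of the whole data lay in a run of 143 purines at genomic residues 346 to 488, made of 84 A and 59 G. It is shown from 5′ to 3′ in 5 pieces, and capitals mark residues with a rate of at least 1% in both genomic libraries.
346 to 375: AaGagagagagagagagagagagagagaga
376 to 405: gagagagagagagagagagagagAgagagg
406 to 435: AaggAaggaaggaaggaaggaaggaaggaa
436 to 465: gGaagAaagAaagaaagaaagaaagaaaga
466 to 488: aagaaaagaaagaaagaaggaaa

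Depth was high enough to resolve rates near 0.1%. The median effective depth per residue ran from 27510 reads in the CH4 deletion library to 241310 in spliced in-cell replicate 1. A residue at the median rate of the shallowest library had 70 mutations in 31167 reads, a rate of 0.225% (95% Wilson interval 0.178% to 0.284%). Intervals given here cover counting error only.

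The libraries fell into more than 1 level of background. The median rate over residues was 0.102% in spliced cell-free replicate 1 and 0.241% in replicate 2. It was 0.101% in spliced in-cell replicate 1 and 0.0909% in replicate 2. The genomic cell-free library had medians of 0.103% in amplicon 1 and 0.0926% in amplicon 2, and the genomic in-cell library 0.0782% and 0.0732%. The CH1 deletion library had a median of 0.107% and the CH4 deletion library 0.225%. Spliced cell-free replicate 2 and the CH4 deletion library were thus more than 2-fold above the other 6, and both belong to the 3 libraries of lowest depth. Over the 407 residues that all 8 libraries measured, these medians were 0.245% and 0.225%, against 0.0755% to 0.107% in the others. Whether depth has a part in this was not tested.

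One library differed from the rest in pattern. The rank order of residues in spliced in-cell replicate 2 was nearly unrelated to that of the other 9 profiles, with Spearman correlations from -0.12 to 0.246 over the residues each pair shared. Among the other profiles the correlations of different libraries or amplicons ran from 0.370 to 0.964, with a median of 0.678. Spliced cell-free replicate 1 and spliced in-cell replicate 1 were closest, at 0.964 over 468 residues. Spliced cell-free replicate 2 and the CH4 deletion library followed the same order at 0.920 over 441 residues, and the genomic cell-free and in-cell libraries at 0.931 and 0.934 in amplicons 1 and 2. Residues are not independent replicates, and all profiles share most of the sequence, so these correlations are descriptions. Between spliced cell-free replicate 1 and spliced in-cell replicate 1, 27.8% of residues differed by more than counting noise, and between spliced cell-free replicate 2 and the CH4 deletion library 17.0% did. The 2 amplicons of the genomic cell-free library differed so at 42.04% of their shared residues and those of the genomic in-cell library at 24.8%. Results that include spliced in-cell replicate 2 are therefore given with and without it. It was singled out from these same rates, so a test without it adds no support of its own.

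**Figure D1:**
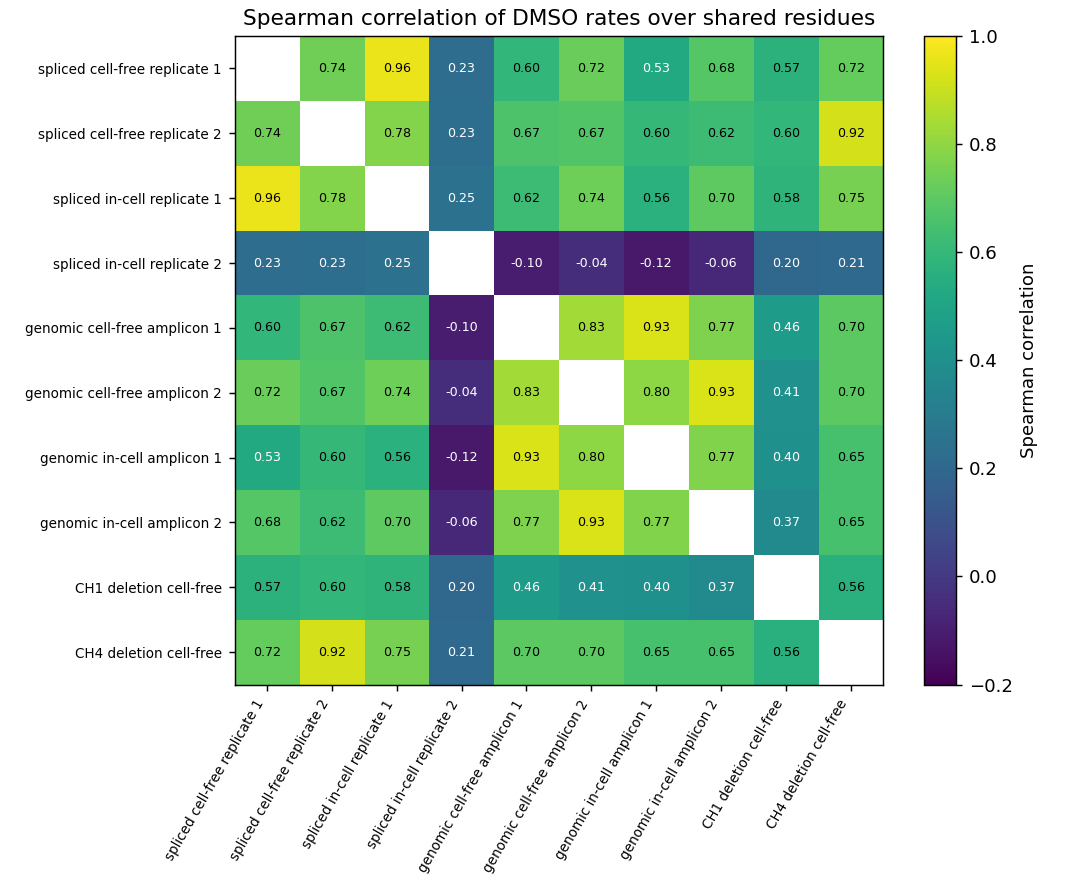
Spearman correlation (colour and printed value) of DMSO mutation rates between each pair of the 10 profiles, over the residues the pair shares. The row and column of spliced in-cell replicate 2 stay between -0.12 and 0.246, while the other pairs reach 0.370 to 0.964.

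Cytidine carried less background than the average of the other bases in every library, and guanosine carried more in all but 1. The median rate at cytidines was 0.0688% and 0.166% in spliced cell-free replicates 1 and 2 and 0.0627% and 0.0350% in spliced in-cell replicates 1 and 2. It was 0.0757% and 0.0832% in the genomic cell-free amplicons, 0.0572% and 0.0665% in the genomic in-cell amplicons, 0.0735% in the CH1 deletion and 0.138% in the CH4 deletion. The median at guanosines was 0.160% and 0.301% in the spliced cell-free replicates, 0.150% in spliced in-cell replicate 1 and 0.0318% in replicate 2. In the genomic RNA the guanosine median was 0.224% and 0.175% cell-free and 0.149% and 0.144% in cells, and it was 0.117% in the CH1 deletion and 0.313% in the CH4 deletion.

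Each base was compared with the mean of the medians of the other 3 bases in the same library. The log2 difference for cytidine was -0.86 ± 0.31 (SD, n = 8 libraries), a 0.549-fold level, and it was negative in 8 of 8 libraries. This passed an exact two-sided sign-flip permutation test (p = 0.00781, the smallest that 8 libraries allow; Benjamini-Hochberg adjusted p = 0.0312 over 4 bases). Guanosine lay at 0.42 ± 0.93 (SD, n = 8) and was positive in 7 of 8 libraries, which did not pass (adjusted p = 0.302, exact sign-flip permutation). Without spliced in-cell replicate 2, where guanosine was at -1.70, the value was 0.72 ± 0.38 (SD, n = 7). It was then positive in 7 of 7 (adjusted p = 0.0312, exact sign-flip permutation). That library was singled out from these same rates and held the only negative value, so this p-value adds no support. Cytidine without that library was at -0.77 ± 0.15 (SD, n = 7; adjusted p = 0.0312, exact sign-flip permutation). The libraries share most of the sequence, so the test asks whether the difference recurs between libraries of MUNC and not whether it holds in other RNAs. Some libraries also had nearly the same rank order of residues, as given above. The 8 are thus not fully separate, and the sign-flip p-values for bases and neighbours may be too small.

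Adenosine and uridine had no common direction. Adenosine was at -0.12 ± 0.61 (SD, n = 8; adjusted p = 0.594, exact sign-flip permutation) and uridine at 0.19 ± 0.37 (SD, n = 8; adjusted p = 0.302, exact sign-flip permutation). Adenosine was -0.89 in the genomic cell-free and -0.88 in the genomic in-cell library, where its median (0.0526% to 0.0729%) lay below that of cytidine, and 0.32 in the CH1 deletion. In spliced in-cell replicate 2 the bases fell into pairs, with medians of 0.137% at adenosine and 0.138% at uridine against 0.0350% at cytidine and 0.0318% at guanosine.

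**Figure D2:**
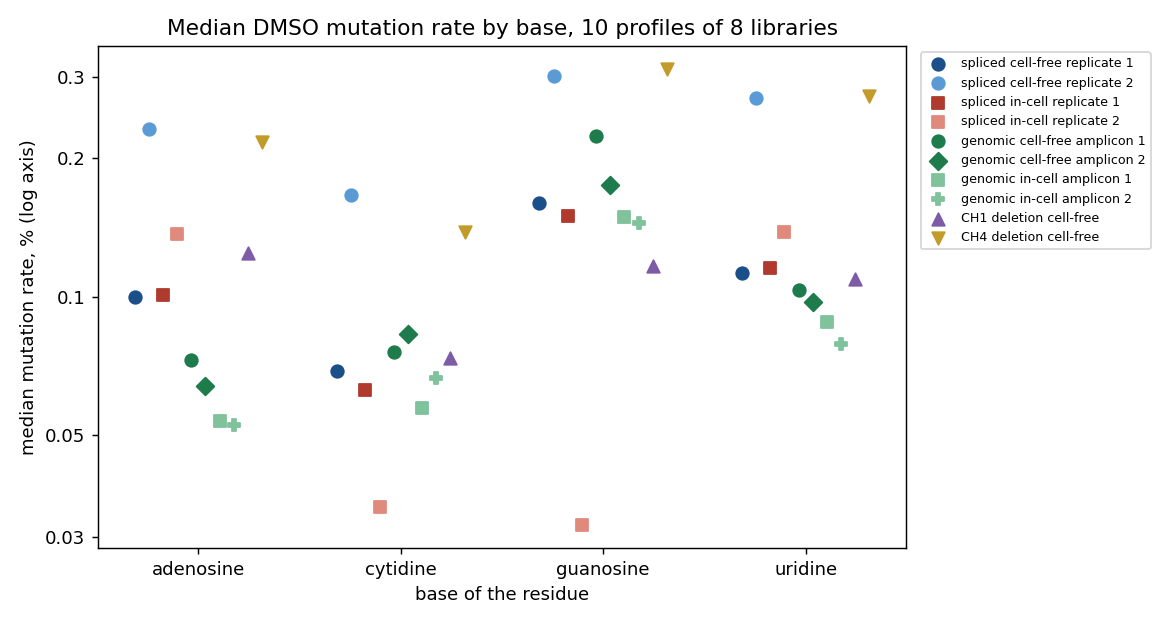
Median DMSO mutation rate (percent, log axis) at adenosines, cytidines, guanosines and uridines, 1 point per profile. Guanosine is high and cytidine low in most profiles, but spliced in-cell replicate 2 has guanosine at 0.0318% and cytidine at 0.0350%, below all other profiles.

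The base on the 3′ side, which reverse transcriptase copies just before the residue itself, went with larger differences than the base on the 5′ side. After removal of the median of each residue's own base, residues followed by C had a log2 rate 0.63 ± 0.27 above other residues (SD, n = 8), which is 1.55-fold. The 8 libraries gave 0.54 and 0.62 for the spliced cell-free replicates, 0.68 and 0.03 for the spliced in-cell replicates, 0.83 and 0.70 for the genomic cell-free and in-cell RNA, 0.89 for the CH1 deletion and 0.74 for the CH4 deletion. All 8 were positive, with spliced in-cell replicate 2 far below the other 7 (adjusted p = 0.0312 over 8 neighbours, exact sign-flip permutation). Without that library the mean was 0.72 ± 0.12 (SD, n = 7; adjusted p = 0.025, exact sign-flip permutation). Residues followed by A were lower, at -0.42 ± 0.20 (SD, n = 8; adjusted p = 0.0312, exact sign-flip permutation), negative in 7 of 8 libraries, and at -0.48 ± 0.09 in the 7 without the exception. Residues preceded by G were higher, at 0.27 ± 0.19 (SD, n = 8; adjusted p = 0.0312, exact sign-flip permutation), positive in 7 of 8 libraries.

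The remaining neighbours differed by little. A following G was at -0.08 ± 0.06 (SD, n = 8; adjusted p = 0.0312, exact sign-flip permutation). Each class is compared with all other residues, so an excess after 1 neighbour lowers the values of the other neighbours on that side. A following U was at -0.10 and a preceding A at -0.13, a preceding U at -0.09 and a preceding C at -0.02, and none of these passed (adjusted p from 0.05 to 0.516, exact sign-flip permutation). Among the 16 combinations of a base and its 3′ neighbour, guanosine before C had the highest median in 7 of 10 profiles. It ran from 0.223% in spliced cell-free replicate 1 to 0.557% in replicate 2, and was 0.0318% in spliced in-cell replicate 2. Among combinations with the 5′ neighbour, guanosine after G was highest in 9 of 10 profiles.

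**Figure D3:**
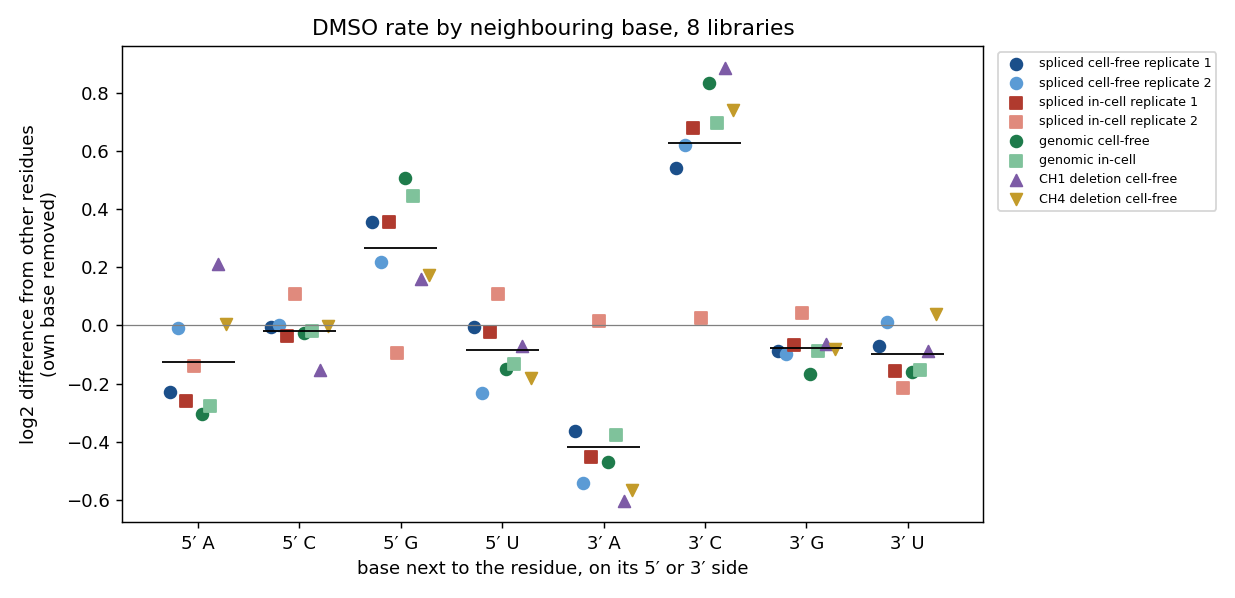
Log2 difference in DMSO rate between residues with the given 5′ or 3′ neighbour and all other residues, after removal of each residue's own base, 1 point per library (amplicons of a genomic library averaged) and a bar at the mean of 8 libraries. A following C stands at a mean of 0.63 and a following A at -0.42, and spliced in-cell replicate 2 lies near 0 for both.

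Uridines directly before CC had high background. The description was made after the recurring residues had been seen, so no test is given. MUNC has 13 such uridines among the measured residues, 6 in the exons and 7 in the insert. In spliced cell-free replicate 1 their median rate was 0.496%, against 0.158% at uridines before a single C and 0.0990% at uridines with no C behind them. The same 3 medians were 1.05%, 0.296% and 0.261% in spliced cell-free replicate 2. They were 0.525%, 0.165% and 0.104% in spliced in-cell replicate 1. Over the 9 profiles other than spliced in-cell replicate 2, uridines before CC were 3.87-fold to 12.2-fold above uridines not before C, with a median of 5.06-fold. Cytidines before CC were 2.81-fold to 7.42-fold above cytidines not before C, and adenosines were at 0.777-fold to 1.33-fold. Guanosines were 1.59-fold to 2.93-fold higher before CC and 1.90-fold to 3.29-fold higher before a single C. In spliced in-cell replicate 2 the uridine medians were reversed, at 0.106% before CC and 0.148% not before C.

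The 6 exon uridines of this class were U126, U171, U225, U447, U475 and U480. U171 was measured in all 10 profiles. It had 0.493% and 1.39% in the spliced cell-free replicates and 0.522% and 0.0582% in the spliced in-cell replicates. It had 0.836% and 0.878% in the genomic cell-free amplicons, 0.475% and 0.478% in the genomic in-cell amplicons, 0.482% in the CH1 deletion and 1.40% in the CH4 deletion. Its lowest value by far was that of spliced in-cell replicate 2. Of the 6, 5 were among the highest 5% in spliced cell-free replicates 1 and 2, in spliced in-cell replicate 1 and in the CH1 deletion, 4 in the CH4 deletion, and 0 in spliced in-cell replicate 2. The insert uridines U624, U648 and U679 were in the list of every genomic profile, while U202, U518, U567 and U683 were in none.

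High-background residues recurred between libraries. In each profile the highest 5% of rates formed a list of 22 to 37 residues. The lists have no natural edge: in spliced cell-free replicate 1 the last residue inside had 0.473% and the first outside 0.469%. Over residues that both profiles measured, 40.0% to 100% of one list was in the other (median 73.0%) for the 34 pairs of profiles from different libraries without spliced in-cell replicate 2. For the 9 pairs with spliced in-cell replicate 2 the share was 5.88% to 37.5%. Of the 468 exon residues 62 were in some list and 23 of these in 1 list alone. G63 and C246 were in the list of every profile that measured them.

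The 11 recurring exon residues were 7 G, 3 U and 1 C, with no A among them, although 134 of the 468 measured residues are A. They were chosen for high rates in all profiles but spliced in-cell replicate 2. Low rates of that library at these residues therefore follow in part from the choice. G255 had the highest rate of the exons. Its rate was 1.52% and 2.40% in the spliced cell-free replicates, 1.88% and 0.0645% in the spliced in-cell replicates, 7.96% and 4.62% in the genomic cell-free and in-cell RNA, 2.03% in the CH1 deletion and 2.89% in the CH4 deletion. The genomic values were above all others, and the value of spliced in-cell replicate 2 (95% Wilson interval 0.0490% to 0.0851%) was far below the lowest of the rest. G254, its 5′ neighbour, had the opposite pattern. It was the highest residue of spliced in-cell replicate 2 at 1.04% and lay between 0.239% and 0.588% elsewhere, and it was chosen after its values were seen.

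G306, the first residue after the CH4 deletion site that recurred, had 1.40% and 3.37% in the spliced cell-free replicates and 0.774% and 0.0272% in the spliced in-cell replicates. It had 2.07% and 0.542% in the genomic cell-free and in-cell RNA, 2.54% in the CH1 deletion and 2.47% in the CH4 deletion. C246 had 2.25% and 2.57% in the spliced cell-free replicates, 1.09% and 0.371% in the spliced in-cell replicates, 1.12% and 0.632% in the genomic RNA, 0.534% in the CH1 deletion and 1.96% in the CH4 deletion. G63 had 0.749% and 1.68% in the spliced cell-free replicates, 1.35% and 0.556% in the spliced in-cell replicates, 2.36% and 1.49% in the genomic RNA, 0.615% in the CH1 deletion and 2.39% in the CH4 deletion. Among the recurring exon residues, G63 was the one at which spliced in-cell replicate 2 came closest to the lowest of the other libraries.

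G102 was at 0.239% in spliced in-cell replicate 2 and within a narrow range elsewhere, with 1.14% to 1.33% in the 3 spliced libraries other than in-cell replicate 2, 1.31% and 1.05% in the genomic RNA, 0.720% in the CH1 deletion and 1.24% in the CH4 deletion. G60 ranged from 0.724% to 1.55% outside spliced in-cell replicate 2, where it was 0.0589%. G256 and G262, both just 3′ of G255, ranged from 0.503% to 1.34% and from 0.528% to 1.57%, and were 0.0298% and 0.0291% in that library. At the other end, C98, C393 and C334 had the lowest median rates in the spliced libraries. C98 had 0.0293%, 0.0869%, 0.0389% and 0.0159% in the 4 spliced libraries.

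**Figure D4:**
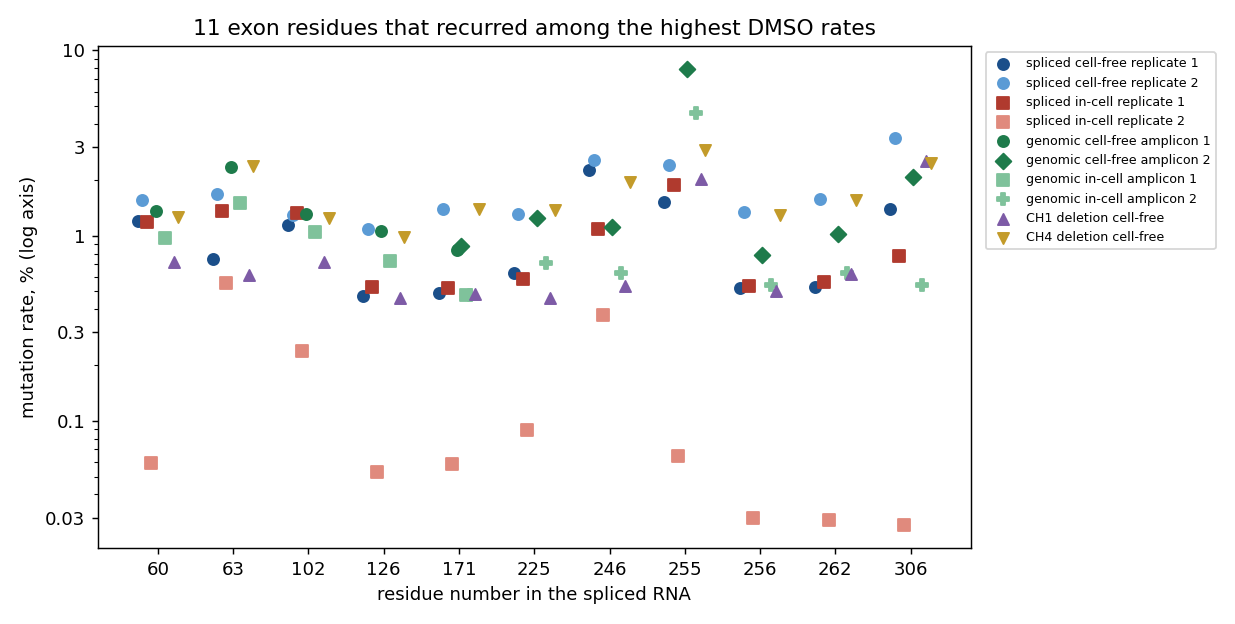
DMSO mutation rate (percent, log axis) of the 11 recurring exon residues, by residue number in the spliced RNA, 1 point per profile that measured the residue. Spliced in-cell replicate 2 is the lowest point at every residue, and G255 reaches 7.96% in the genomic cell-free RNA. The residues were chosen for high rates in the other profiles, so the low place of that library follows in part from the choice.

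Many of the recurring residues sit directly 5′ of a run of 1 base, as the printed sequences show: G63 before 4 A, G102 before 4 C, U225 before 3 C, and C246 and G306 before 3 U. This was noticed in the sequences of the recurring residues, so the counts are a description. Of the 11 recurring exon residues, 5 (45.5%) preceded a run of 3 or more equal bases, against 27 of the 468 measured exon residues (5.77%). In the insert 6 of 27 recurring residues (22.2%) did, against 39 of 565 (6.90%). Recurring asks less in the insert, where these residues were measured in 2 or 4 genomic profiles. The 11 exon residues were measured in 7 or 9 profiles besides spliced in-cell replicate 2. Over the 9 profiles other than spliced in-cell replicate 2, the list of the highest 5% took 16.0% to 33.3% of the residues before such a run, 8.93% to 13.1% of those before a run of 2, and 0.781% to 2.73% of those followed by a single different base. Spliced in-cell replicate 2 had 14.8%, 6.45% and 3.52% in the same 3 classes.

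The counts were also split by the base of the run. Of the 17 residues before 3 or more U, 7 were in the list of every profile that measured them, spliced in-cell replicate 2 set aside here and in the next counts, and those were 7 of the 10 that are G or C (C246, G306, G225, G291, C323, G327 and G337). None of the 7 adenosines before such a run was. Before 3 or more A 2 of 28 residues were (G63 and C626), before C 2 of 9 (G102 and U225), and before G 0 of 12. Of all measured residues, 11 of 468 in the exons and 27 of 565 in the insert were, so counts this small show little for single classes. The classes also differ in their own bases, since 23 of the 28 residues before A but 1 of the 12 before G are G or C. The part of the run and that of the residue's own base were not separated.

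The insert held the extreme values. A399 was mutated in 55.5% of reads in the genomic cell-free library (95% Wilson interval 55.3% to 55.7%) and in 63.4% in the genomic in-cell library (63.0% to 63.7%). It lies near the 3′ end of a tract of 29 copies of AG, at genomic residues 347 to 404. A406 had 11.5% and 10.8%, and A441 6.47% and 6.92%, cell-free and in cells. These lie at the start of 2 further tracts, of AGGA (residues 403 to 440, 9.5 copies) and of AAGA (residues 438 to 471, 8.5 copies). The other adenosines of at least 1% in both libraries were A346 (2.90% and 3.66%), A410 (3.24% and 3.78%) and A445 (1.07% and 1.29%). All 6 were in the purine run, 3 of the 6 were higher than 5%, and no adenosine in the rest of the insert reached 1% in either library.

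High rates in the run were confined to few residues. The mean over its 84 adenosines was 1.08% cell-free and 1.18% in cells, against 0.0812% and 0.0598% over the 112 adenosines in the rest of the insert. The medians were closer, at 0.0989% and 0.0745% in the run against 0.0628% and 0.0510% outside it. Guanosines of the run had lower medians than those outside, at 0.161% against 0.227% cell-free and 0.143% against 0.152% in cells. In the rest of the insert G225 was highest in both libraries, at 5.66% and 4.26%, followed by G337 (4.82% and 2.33%). C626 (4.35% and 1.61% in amplicon 1) and G291 (3.81% and 1.65%) came next. At A399, A441, A410, A346, A445 and G437 the in-cell rate was the higher one, while at A406, G225, G337, C626 and G291 it was the lower one. With 1 library in each environment these differences have no replicate check.

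**Figure D5:**
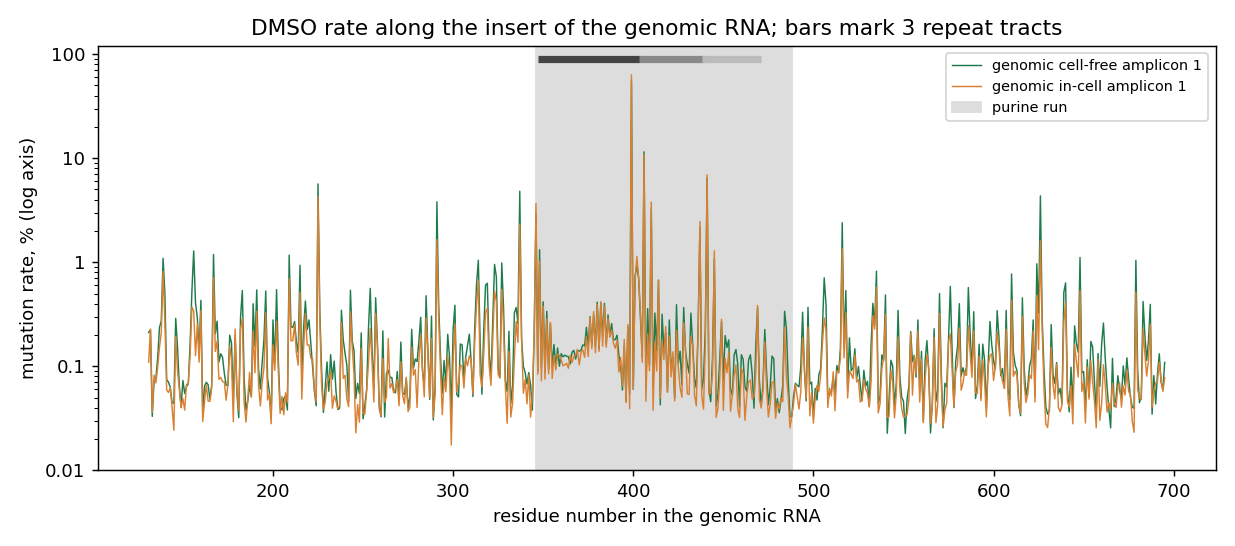
DMSO mutation rate (percent, log axis) along genomic residues 131 to 695 in amplicon 1 of the 2 genomic libraries, with the purine run shaded and its 3 repeat tracts as bars. The rate at A399 reaches 55.5% and 63.4%, and single residues of the run rise above neighbours near 0.1%.

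The 2 amplicons of a genomic library give a repeat measurement of 157 residues, 604 to 760. Their rates had a Spearman correlation of 0.833 in the cell-free and 0.774 in the in-cell library. The SD of the log2 difference over residues was 0.51 and 0.49, and 9 residues differed by at least 2-fold in each library. C625 differed most cell-free, at 0.325% (95% Wilson interval 0.301% to 0.350%) in amplicon 1 and 0.0740% (0.0588% to 0.0932%) in amplicon 2. C626 beside it had 4.35% and 3.66%. A183 had 0.0101% and 0.0359%, and C169 0.104% and 0.0350%. In the in-cell library the 3 largest differences were at C659 (0.0302% and 0.107%), U195 (0.125% and 0.0371%) and C139 (0.0553% and 0.143%). U195 is the last residue that amplicon 1 measured.

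Few of the 407 exon residues that all 4 forms share were called as different between RNA forms. Against the spliced RNA, with all 8 libraries in 1 fit, edgeR's quasi-likelihood test called 4 residues (0.983% of those tested) in the genomic RNA, all lower. Of these, 3 are the neighbouring adenosines A65, A66 and A67, shown in capitals because they are the last 3 of a run of 4 A directly behind the recurring G63.
A65 to A67: caggacaggggaAAAucaaaggggc

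A66 had 0.479% and 0.357% in the spliced cell-free replicates, 0.434% and 0.289% in the spliced in-cell replicates, 0.0529% and 0.0320% in the genomic cell-free and in-cell RNA, 0.124% in the CH1 deletion and 0.333% in the CH4 deletion. Both genomic values were below all others. Its log2 difference was -3.22 (SE 0.82, edgeR adjusted p = 0.0178), and that of A65 was -3.18 (edgeR adjusted p = 0.0178). A67 was called too (edgeR adjusted p = 0.0290), with 0.0440% and 0.0230% in the genomic RNA and 0.140% to 0.384% elsewhere. A64, the first of the run, was not called, with 0.129% and 0.117% in the genomic RNA and 0.162% to 0.600% elsewhere. The last of the 4, U492, is next to the end of the measured stretch. It had 1.02% and 0.159% in the spliced cell-free replicates and 0.732% and 0.0667% in the spliced in-cell replicates, against 0.0665% and 0.0646% in the genomic RNA, so the spliced replicate 1 libraries stood far above the rest. All 4 calls were lost without spliced in-cell replicate 1, with TMM scaling and in the 5 cell-free libraries alone, and DESeq2 called 56. Without spliced in-cell replicate 2 the calls were A65, A66 and U492, lower, and A408, higher. A408 had 1.98% and 3.73% in the genomic RNA and 0.188% to 0.628% in the other 6 libraries, which do not overlap.

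The CH1 deletion differed from the spliced RNA at 0 of 407 residues by edgeR (0%), with 40 below an unadjusted p of 0.05, and DESeq2 called 34. Without spliced in-cell replicate 2 edgeR called 11 (2.7%), all lower in the CH1 deletion. G144 was at 0.0113% there, against 0.155% to 0.379% in the 3 other spliced libraries, 0.0585% in spliced in-cell replicate 2, 0.234% and 0.170% in the genomic RNA and 0.322% in the CH4 deletion. G259 was at 0.0120% and C186 at 0.00895%, and no other library had a rate as low at either (lowest 0.0319% and 0.0199%, both in spliced in-cell replicate 2). Their log2 differences were -4.51, -4.02 and -3.63 (edgeR adjusted p = 0.0159, 0.0281 and 0.0258). The lowest 5% of residues in the CH1 deletion library were at or below 0.0173%, a value otherwise matched by spliced in-cell replicate 2 (0.0167%) alone, since the other profiles had 0.0320% to 0.0872%. The CH4 deletion had a median log2 difference from the spliced RNA of 0.41 over 407 residues, and of 0.94 without spliced cell-free replicate 2. With its 1 library the fit cannot tell which single residues differ. Each deletion has 1 library, so its own spread is taken from the other groups.

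Treatment of the RNA inside the cells went with no residue called in the spliced RNA. edgeR found 0 of 468 residues (0%) between 2 in-cell and 2 cell-free libraries, with 12 below an unadjusted p of 0.05, all lower in cells. DESeq2 found 0, with 25 unadjusted. Where nothing differs, a share of about 0.05 of residues falls below that p. The direction depended on the scaling. With TMM scaling 9 were below it, 7 higher and 2 lower in cells, and with the size factors of DESeq2 20 were, 13 higher and 7 lower. In the main edgeR fit the smallest adjusted p was shared by C42, C48 and C120 among others (edgeR adjusted p = 0.872). C120 shows the spread, with 0.115% in cell-free replicate 1, 0.109% and 0.0339% in the in-cell replicates, and a rate above 1% in cell-free replicate 2 alone.

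The median rate was 0.171% ± 0.0986 cell-free and 0.0961% ± 0.00739 in cells (SD, n = 2 each). The means of the log2 medians differed by -0.71, a 0.613-fold level. The exact two-sided permutation p was 0.333, the smallest that 2 against 2 libraries allow. Cell-free replicate 2 was the high one, at 0.241%, since the other 3 medians lay between 0.0909% and 0.102%, and without it the difference was -0.08. Set side by side by number, which no label ties to a shared culture, the replicate 1 libraries differed by at least 2-fold at 4 of 468 residues (0.855%) and the replicate 2 libraries at 267 (57.1%).

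In the genomic RNA the in-cell rate was lower at 82.4% of the 735 residues of amplicon 1 and 86.2% of the 455 of amplicon 2. The log2 ratio of the median rates, averaged over the amplicons, was -0.37, a 0.775-fold level, and 57 (7.76%) and 18 (3.96%) residues differed by at least 2-fold. Relative to cell-free, the lowest in-cell rates were at A38, C156 and A660 in amplicon 1 and at G306, G490 and C410 in amplicon 2. C156 had 1.28% (95% Wilson interval 1.23% to 1.34%) cell-free and 0.339% (0.306% to 0.374%) in cells. The relatively highest in-cell rates were at A183 (0.0101% to 0.0323%), C264 (0.0917% to 0.184%) and C125 in amplicon 1 and at A408 (1.98% to 3.73%), U675 and A258 in amplicon 2. At A183, C125, U675 and A258 the 95% Wilson intervals of the cell-free and in-cell rates overlapped. Those of A183 were 0.00462% to 0.0220% and 0.0180% to 0.0578%. The genomic in-cell difference was not tested on its own. An interaction of form and environment in edgeR, over 6 libraries, had a median log2 value of 0.44 over 468 exon residues. The genomic RNA has 1 library in each environment, so the spread came from the spliced replicates alone. The fit therefore cannot tell whether the in-cell difference is alike in both forms.

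Guanosines in modelled helices had higher background than other guanosines in all 8 profiles of the spliced and genomic RNA. A residue was counted as paired where its summed probability in the authors' cell-free pairing model was at least 0.5. Paired guanosines were above unpaired ones by 0.60 and 0.45 on the log2 scale in the spliced cell-free replicates and by 0.88 and 0.12 in the spliced in-cell replicates. In the genomic RNA the difference was 0.66 and 0.49 cell-free and 0.55 and 0.44 in cells, for amplicons 1 and 2. Adenosines of the spliced RNA were at -0.18 to -0.08, while those of the genomic RNA were at 0.49 and 0.07 cell-free and 0.42 and 0.16 in cells. Genomic cytidines were at 0.55 and 0.20 in amplicon 1 and at -0.10 and -0.16 in amplicon 2. Spliced cytidines ran from -0.24 to 0.26, and uridines of both forms from -0.39 to 0.28. Over all bases, with each residue's own base removed, the difference was -0.03 to 0.06 in the spliced profiles and 0.11 to 0.26 in the genomic ones. The models belong to the SHAPE data of these RNAs, into which the DMSO rates enter, so the pairing is not independent of the background and no test is given.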

How the data were processed

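Per the labels' protocols, MUNC was reverse transcribed under mutational profiling conditions with gene-specific primers, amplified, and sequenced on a MiSeq after Nextera XT preparation. A mutation count, an effective depth count and a mutation rate as a fraction were deposited for each residue, per the file headers. The fraction equalled the first count over the second to within 5.0e-07. The deposited pairing files hold −log10 of pairing probabilities. The aligner, mutation counter and their settings are not given in the sources used here, and no genome coordinates are used. Reagent columns were not used, and 0 columns were left without a sample.

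Residues were placed on the spliced numbering by aligning the 4 sequences. Log2 rates used (mutations + 0.5) / (depth + 1). Count tests were edgeR 4.0.16 quasi-likelihood fits (limma 3.58.1, R 4.3.3) with log effective depth as offset, a summed mutation minimum of 10, which removed 0 residues, and Benjamini-Hochberg adjustment at 0.05. DESeq2 1.42.0 was the alternative. Other values used Python 3.11.15 and scipy 1.17.1. The fits and the neighbour test were also run on simulated counts with known changes, as a check of the code. Those counts were simpler than these data, so they do not measure the power of the tests here. Residues named were those in the top 5% of every profile, those of at least 5% in any, the 3 lowest, the 3 largest called changes per form, the 3 smallest adjusted p between environments (5 rises and 5 falls, had any passed), and the 3 largest amplicon differences. The residues, groupings and tests were chosen with earlier results of these data known.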

Additional observations from a re-analysis of the deposited data

Results flagged for a closer look

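Of 13 measures compared over the 8 libraries, 5 had 1 library farther from the others than Dixon's 95% criterion allows, and in all 5 it was spliced in-cell replicate 2. By chance about 1 such group in 20 is marked, but the 13 measures are not independent. Each base is set against the other bases and each neighbour against all other residues. The same odd library can thus move several measures at once. In that library guanosine stood at -1.70 and cytidine at -1.55 on the log2 scale against the other bases, the lowest of 8, and uridine at 1.03, the highest. The excess of residues followed by C was 0.0262, the lowest of 8, and the deficit of residues followed by A was absent at 0.0160, the highest of 8. Its median effective depth of 69228 lies above that of spliced cell-free replicate 2 and the CH4 deletion.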

How the results depend on the processing

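Calls on bases and neighbours rest on exact tests whose smallest p depends on the number of libraries. Leaving out 1 library moved cytidine between -0.90 and -0.77, guanosine between 0.30 and 0.72, a following C between 0.59 and 0.72, a following A between -0.48 and -0.39, a following G between -0.0944 and -0.0642, a preceding G between 0.23 and 0.32, a preceding U between -0.114 and -0.0651 and a preceding C between -0.0356 and 0.00170, where it reversed without the CH1 deletion. The calls on cytidine, following C, following A, following G and preceding G were kept only where spliced in-cell replicate 2 was the one left out. The smallest p that 7 libraries allow is 0.0156. Guanosine, preceding C and preceding U passed as well without spliced in-cell replicate 2. That library was singled out from these same rates, so these passes add no support. In the 5 cell-free libraries alone (smallest p 0.0625) cytidine at -0.76, following C at 0.73, following A at -0.51, following G at -0.10 and preceding G at 0.28 kept their direction and did not pass. With means in place of medians guanosine (0.44) and preceding A (-0.22) passed and following G (-0.0879) did not.

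With a rate of at least 1% in place of a rank, the median share of recurring residues was 36.7%, against 64.2% over all pairs. Between environments edgeR called 2 residues without spliced in-cell replicate 1 and 0 to 2 over single left-out libraries. The genomic form had 4 calls in the main setting, 0 with TMM scaling or in cell-free libraries alone, 56 by DESeq2, and 0 to 4 with 1 library left out. The CH1 deletion had 0, 34 by DESeq2 and 0 to 11 with 1 left out, where spliced in-cell replicate 2 gave 11. The CH4 deletion had 0 throughout. TMM scaling moved the median in-cell difference of the edgeR fit from -0.73 to 0.05.

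Same-numbered replicates were compared for pairing. Their deviations correlated at 0.217 over 468 residues with 2 pairs, so the numbers were not taken as pairs. Each in-cell deviation includes spliced in-cell replicate 2, so this cannot show whether the replicate 1 libraries belong together. Those had a Spearman correlation of 0.964, against 0.738 between the cell-free replicates. A replicate block gave 0 called residues (2 unadjusted) and a median log2 ratio of -0.71.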
